A study of Mus musculus with 2 samples.

Results

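The genes described here lie on mouse chromosome 3 around H2afz, the gene that was targeted in the conditional knockout and that encodes the histone variant H2A.Z. The rule takes a stretch of the chromosome and a minimum depth: every gene of the deposited count table that starts at chr3:127866922 or later, which is 10 Mb before the end of H2afz, up to the end of the chromosome, with at least 20 counts summed over both libraries. H2afz itself, Unc5c, Lhx8 and Tet2 were left out by name, which gave 106 genes of the 19202 in the table. RNA was sequenced from the telencephalon of mouse embryos on a C57BL/6 background at embryonic day 12 (E12). The 2 groups were H2AZcKO, the conditional knockout, and H2AZfl/fl, whose floxed H2afz alleles are the control. The sources used here do not name the Cre driver, the exons flanked by loxP sites, the number and sex of the embryos or any pooling. The sample titles name brain, the tissue label names telencephalic tissue and the extraction protocol names cerebral cortex. How much ventral telencephalon, or tissue from outside the telencephalon, was included in each library is therefore not known. Triplicates are mentioned in the series text, whereas each genotype has 1 count column in the table. The data therefore have no replicate check, no test of the genotype was possible, and every interval below covers counting error only.

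H2A.Z replaces the ordinary histone H2A in nucleosomes beside transcription start sites and at enhancers, where exchange complexes insert and remove it. Neighbouring genes on a chromosome need not share a function, but they can share regulatory DNA, and pairs that start back to back and point in opposite directions are common in mammalian genomes. The genes around H2afz have diverse roles, among them the cap-binding translation factor Eif4e, the calcineurin subunit Ppp3ca, the alcohol dehydrogenase family member Adh5, the Wnt effector Lef1 and the neuronal adhesion gene Negr1.

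Of 177 table rows in the segment, 67 had fewer than 20 counts, between 2 and 19 each, and together held 204 counts in the H2AZcKO library and 250 in the H2AZfl/fl library. The 110 rows at or above the minimum became 106 after the 4 named genes were taken out. Of these, 93 are protein-coding and 13 are other types, namely 5 unverified transcribed regions, 3 long intergenic RNAs, 3 antisense RNAs, 1 processed transcript and 1 processed pseudogene. The 56 genes on the plus strand and 50 on the minus strand comprise 37 on the centromeric side of H2afz and 69 on the telomeric side, and 39 of them overlap another row of the table, 29 on the opposite strand. Use of strand in the counting is not stated in the sources at hand, so reads of overlapping genes may not be separated. The gene just inside the minimum was the antisense RNA 4930539J05Rik, with 9 counts in H2AZcKO and 12 in H2AZfl/fl. Just outside it were Dkk2, a secreted Wnt antagonist, with 7 and 12 counts, and Slc9b2, a sodium-proton exchanger, with 9 and 9. At the position limit, Fam241a was inside with 73 and 65 counts, and Ap1ar was outside with 716 and 688.

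The stretches of DNA shown here lie next to the members whose ratios stood furthest from 1 in each direction among genes with at least 100 summed counts. The first is the 250 bases before the annotated start of Dnajb14, chr3:137867425-137867674 on the plus strand of GRCm38, which fall within the 752 bases that separate the end of H2afz from Dnajb14. The second is the whole gap of 161 bases between the noncoding gene AI606473 and the LIM-homeobox gene Lhx8, chr3:154330660-154330820, also written on the plus strand. Both come from the RefSeq promoter table for GRCm38.p6, and capitals mark a GC box.
Dnajb14: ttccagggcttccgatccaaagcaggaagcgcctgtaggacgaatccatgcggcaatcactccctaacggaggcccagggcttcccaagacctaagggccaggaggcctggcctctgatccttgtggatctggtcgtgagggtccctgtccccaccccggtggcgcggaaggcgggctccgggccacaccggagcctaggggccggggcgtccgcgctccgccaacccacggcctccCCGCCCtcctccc
AI606473: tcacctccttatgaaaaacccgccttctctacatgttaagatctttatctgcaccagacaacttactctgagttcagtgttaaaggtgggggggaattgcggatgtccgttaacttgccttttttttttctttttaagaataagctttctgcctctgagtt

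The windows were searched on both strands for the GC box (GGGCGG, or CCGCCC on the other strand) and the CCAAT box (CCAAT or ATTGG). The Dnajb14 window held 1 GC box, no CCAAT box and 19 CpG dinucleotides, at 69.2% G and C. Over 32851 promoter windows of 250 bases, 32.7% held a GC box, 33.8% held a CCAAT box and the median was 6 CpG. The gap beside AI606473 held neither motif and 3 CpG, at 40.4% G and C. Over windows of 161 bases the shares were 29.3% and 25.7%, with a median of 4 CpG. The Dnajb14 window is thus above the median promoter in CpG and the gap beside AI606473 is not. At least as many CpG were held by 19.7% of windows of 250 bases and 60.8% of windows of 161 bases, respectively.

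The targeted gene was measured first. H2afz (chr3:137864487-137866922, plus strand) had 1664 counts in H2AZcKO and 2605 in H2AZfl/fl, or 191 and 289 CPM, the count relative to the scaled size of its library. The ratio of H2AZcKO to H2AZfl/fl was 0.661 (95% exact interval 0.621 to 0.703), so transcript of the gene remained in the knockout library. Counts cover the whole gene, and fewer cells carrying a transcript cannot be told apart from less transcript per cell in bulk RNA.

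The first gene downstream of H2afz, Dnajb14, was the most reduced of the 106 flanking genes on the log2 scale. Dnajb14 (ENSMUSG00000074212, chr3:137867675-137916557, plus strand) encodes a J-domain co-chaperone in the membrane of the endoplasmic reticulum. It had 151 counts in H2AZcKO and 266 in H2AZfl/fl, or 17.3 and 29.5 CPM, a ratio of 0.587 (0.478 to 0.720) and a log2 ratio of -0.73 on the log2(CPM + 1) scale used for all log2 ratios below. The value lies at percentile 1.29 of all 14004 genes with at least 20 counts. Its interval overlaps that of H2afz. Dnajb14 shares 2347 bases with Gm43088 on the same strand, a row with 4 counts in each library.

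Lamtor3 (ENSMUSG00000091512, chr3:137918506-137928900, plus strand) follows 1948 bases after the end of Dnajb14 and encodes a subunit of the Ragulator complex, which anchors mTORC1 signalling on lysosomes. It had 315 counts in H2AZcKO and 407 in H2AZfl/fl, or 36.1 and 45.1 CPM, a ratio of 0.801 (0.689 to 0.930) and a log2 ratio of -0.31. H2afz, Dnajb14 and Lamtor3, which lie in that order on the same strand, were thus all lower in H2AZcKO, and each had an interval wholly below 1. The lower counts of Dnajb14 and Lamtor3 may go with the targeted allele, any loss of H2A.Z or another difference between the libraries. All of these separate the same 2 libraries and cannot be told apart. Sex-linked, diencephalic and erythroid markers, given below, also differed between the libraries, and RNA counts do not measure H2A.Z protein.

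The next genes along the chromosome did not share the lower counts. Dapp1, an adaptor of phosphoinositide signalling, had 60 counts in H2AZcKO and 55 in H2AZfl/fl, a ratio of 1.13 (0.770 to 1.66). Mttp, the triglyceride transfer protein of lipoprotein assembly, had 79 and 70 counts, and its ratio of 1.17 (0.836 to 1.63) also spans 1. Trmt10a, a tRNA methyltransferase, had 88 and 84 counts and a ratio of 1.08 (0.795 to 1.48). At these depths a difference of the size seen for Lamtor3 lies outside the interval of Mttp and inside those of Dapp1 and Trmt10a. Adh5, which oxidises the glutathione adduct of formaldehyde, had 1700 and 1515 counts, or 195 and 168 CPM, and was higher in H2AZcKO at 1.16 (1.08 to 1.24). Metap1, a methionine aminopeptidase, had 393 and 416 counts and a ratio of 0.977 (0.849 to 1.12). Eif4e had 1583 and 1546 counts and a ratio of 1.06 (0.987 to 1.14). Tspan5, a tetraspanin, had 714 and 669 counts and a ratio of 1.10 (0.992 to 1.23). Of the 9 genes within 1 Mb on the telomeric side, Dnajb14 and Lamtor3 were the only ones whose interval lay wholly below 1.

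On the centromeric side, 3 genes lie within 1 Mb of H2afz and none of them was lower beyond counting error. Ddit4l, an inhibitor of mTORC1 signalling, had 71 counts in H2AZcKO and 53 in H2AZfl/fl, a ratio of 1.39 (0.957 to 2.02). Emcn, an endothelial sialomucin, had 47 and 50 counts and a ratio of 0.972 (0.639 to 1.48). Ppp3ca, the catalytic subunit of calcineurin, had 1473 and 1348 counts and was higher at 1.13 (1.05 to 1.22). The lower values near H2afz were therefore on its downstream side, in the 2 nearest genes.

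**Figure D1:**
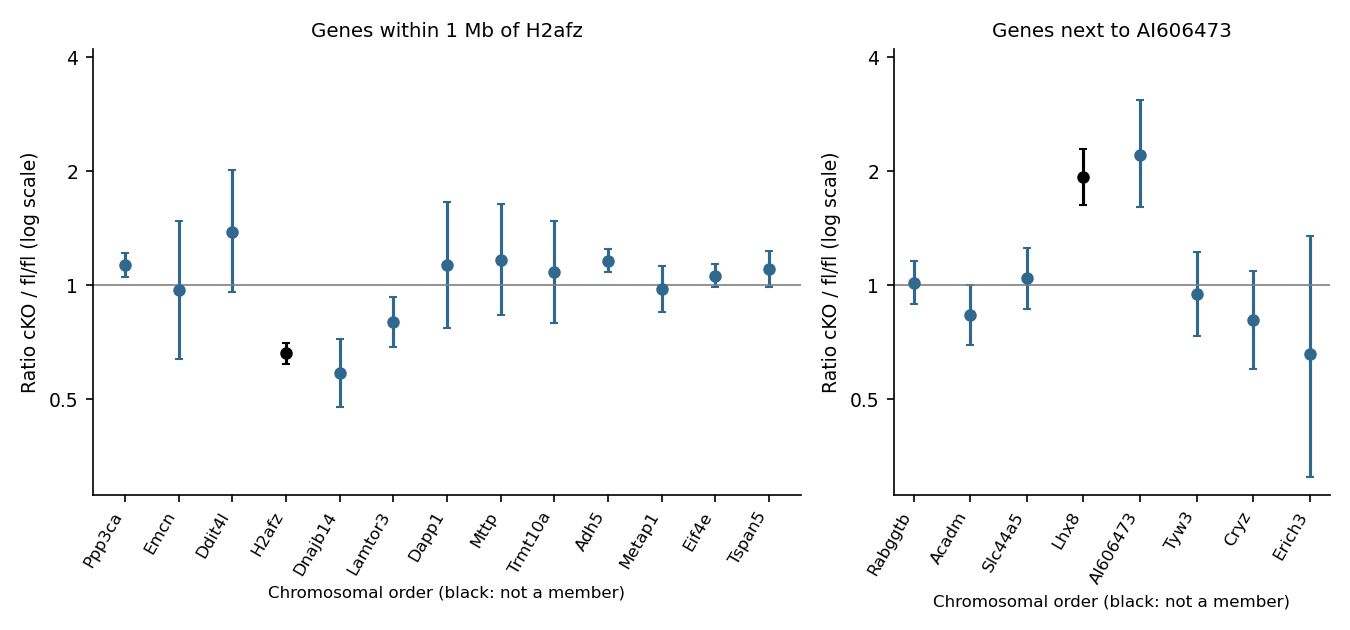
Ratio of scaled counts of H2AZcKO (cKO) to H2AZfl/fl (fl/fl) on a log axis with its 95% counting interval, in chromosomal order, for the genes within 1 Mb of H2afz (left) and around AI606473 (right); black points are H2afz and Lhx8, which are not members. H2afz, Dnajb14 and Lamtor3 stand below 1 with their whole intervals, and Lhx8 and AI606473 stand above their neighbours at 1.93 and 2.21.

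Over the whole segment the flanking genes had ratios close to those of other genes. Their median log2 ratio was 0.06, with an interquartile range of -0.12 to 0.17 and extremes of -0.73 for Dnajb14 and 1.03 for AI606473. The median was 0.01 over all 14004 genes, -0.00 over the 607 other genes of chromosome 3 and 0.01 over the 13287 genes of the other chromosomes. Medians of the 20 chromosomes, each a larger set, ran from -0.02 on chromosome 1 to 0.02 on chromosome 12. Of the 106 flanking genes, 64 had a log2 ratio above 0 and 42 below, so 60.4% were above 0 beside 51.2% of all genes. Scaling by total counts put 57 of 106, or 53.8%, above 0 beside 43.8% of all genes. Summed over the flanking genes there were 52984 counts in H2AZcKO and 52595 in H2AZfl/fl, a scaled ratio of 1.04 (1.03 to 1.05) beside 1.03 for the sum over all genes.

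At least 1.5-fold higher on the log2(CPM + 1) scale were 4 flanking genes, AI606473, Gm43857, Gm43254 and Ak5, or 3.77%, beside 1.54% of all genes. At least 1.5-fold lower were 3, Dnajb14, Gm26691 and Cth, or 2.83%, beside 2.45% of all genes. Within 1.5-fold were 99 genes, or 93.4%, beside 96.0% of all genes. Of the 7 genes past 1.5-fold, 5 had fewer than 100 summed counts, and Dnajb14 and AI606473 were the other two. Among all genes of that low depth, 145 were higher and 239 lower of 2790, so such calls are common where counts are few.

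An interval wholly above 1 was found for 20 flanking genes, or 18.9%, beside 12.9% of all genes. An interval wholly below 1 was found for 8, or 7.55%, beside 11.3%. With the libraries scaled by total counts instead, the flanking genes divided into 16 above and 11 below, beside 9.12% and 15.4% of all genes, and with DESeq2 size factors into 17 and 10, beside 10.7% and 13.5%. In the authors' deposited table, 8 of the 106 genes had an adjusted p-value under 0.05 beside 12.9% of the 14004 genes, namely Cxxc4, Dnajb14, Lamtor3, Adh5, Lmo4, Miga1, AI606473 and Negr1. That p-value compares 1 column with 1 column by a test that the sources do not name.

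Well-counted members were mostly a little higher in H2AZcKO. Of the 32 flanking genes with at least 1000 summed counts, 26 had a log2 ratio above 0, or 81.3%, beside 57.1% of the 4676 genes of that depth, and their median was 0.07 beside 0.03. With total-count scaling, 22 of the 32 were above 0 beside 45.9% of all such genes. None of the 32 was past 1.5-fold, and they spanned -0.25 for Miga1 to 0.30 for Negr1. The 48 members of 100 to under 1000 counts had a median of 0.02 and the 26 members of 20 to 99 counts a median of -0.04. In the plot of levels the genes draw closer to the line of equal level as the level rises.

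**Figure D2:**
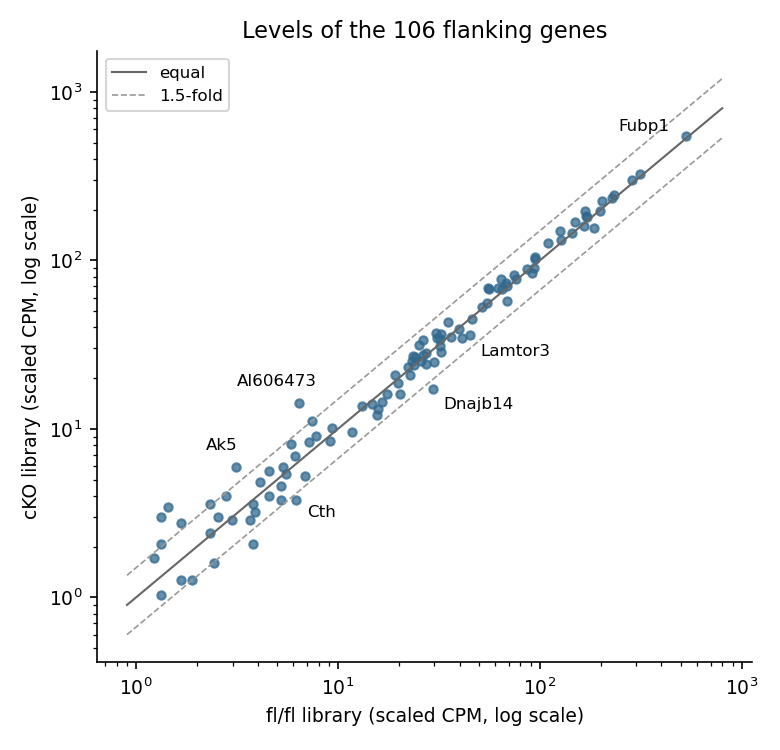
Scaled CPM of each of the 106 flanking genes in H2AZcKO against that in H2AZfl/fl, both on log axes, with the line of equal level and dashed lines at 1.5-fold. Most points lie between the dashed lines, with Dnajb14 at 17.3 and 29.5 CPM below them and AI606473 at 14.2 and 6.43 CPM above them.

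By distance from H2afz the ratio had no simple course. Measured from nearest edge to nearest edge, the 12 genes within 1 Mb had a median log2 ratio of 0.12, with 8 above 0 and 4 below, and the 94 genes beyond 1 Mb a median of 0.05. Across the 106 genes, which share the same 2 libraries and are not independent replicates, Spearman's rank correlation of the log2 ratio with absolute distance was -0.18. It was -0.10 over the 37 genes of the centromeric side and 0.01 over the 34 genes of the telomeric side within 10 Mb. It was -0.18 over all 69 genes of the telomeric side. Dnajb14 and Lamtor3 were the lowest of the 12 genes within 1 Mb, but Lamtor3, at percentile 9.22 of all genes, was not extreme in the segment, where 7 members besides Dnajb14 had a lower log2 ratio. The rank correlation with the length of the longest transcript was larger in size, -0.33 over the members and -0.28 over all genes, so that longer transcripts had lower ratios in both sets.

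On the centromeric side, the 15 genes 6 to 10 Mb from H2afz had a median of 0.07, or 0.17 without genes that overlap another row and 0.0050 with no count minimum, from Col25a1, a brain collagen, at -0.33 to Mcub, a subunit of the mitochondrial calcium uniporter, at 0.41. The 10 genes at 3 to 6 Mb had a median of 0.25, with 6 above 0 and 4 below, the highest of the bins as measured. This median depended on the settings: it was 0.11 with a minimum of 50 counts and 0.13 with a pseudocount of 5 CPM. With no minimum, the medians of this bin, of the bin at 6 to 10 Mb and of all genes were each 0.0050. The pseudocount draws rows of very few counts towards 0, so that value does not describe the bins. Of those 10 genes, 4 had an interval wholly above 1 and 3 wholly below, beside 12.9% and 11.3% of all genes. The 9 genes at 1 to 3 Mb had a median of 0.07, or 0.15 among protein-coding genes, and the 3 genes within 1 Mb a median of 0.18. On the telomeric side, the 9 genes within 1 Mb had a median of 0.11 despite Dnajb14 and Lamtor3. A single gene lay at 1 to 3 Mb, Rap1gds1, an exchange factor for small G proteins, with 610 and 622 counts and a log2 ratio of 0.02. The 5 genes at 3 to 6 Mb had a median of -0.09, the 19 genes at 6 to 10 Mb a median of 0.09 and the 14 genes at 10 to 16 Mb a median of 0.03. The last of these was -0.0087 and that of Rap1gds1 -0.02 under total-count scaling. Beyond 16 Mb, 21 genes had a median of -0.03, with 10 above 0 and 11 below, and held both AI606473 and Cth. That median was 0.02 with a minimum of 50 counts.

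**Figure D3:**
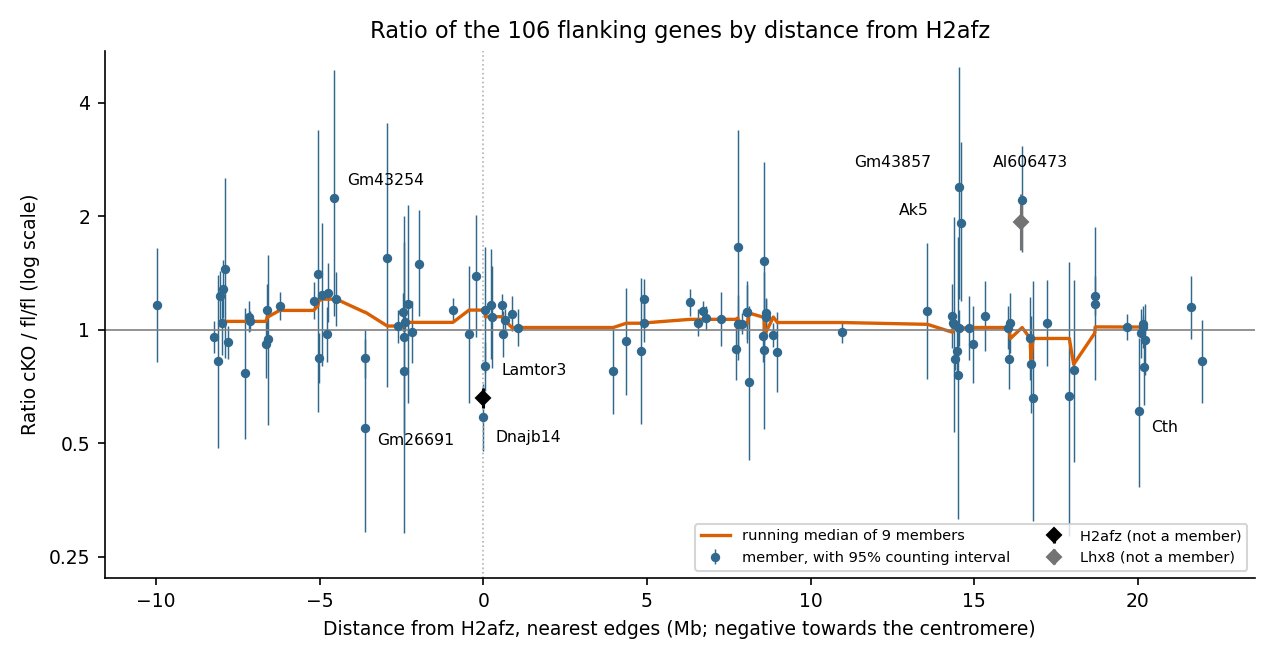
Ratio of H2AZcKO to H2AZfl/fl on a log axis with 95% counting intervals against distance from H2afz in Mb, negative towards the centromere, for the 106 flanking genes; the line is the running median of 9 genes, and diamonds are H2afz and Lhx8. The line stays near 1 over most of the segment and rises at 3 to 6 Mb on the centromeric side, where the median ratio was 1.20. Dnajb14 is low at 0.587 beside H2afz, and AI606473 is high at 2.21 and 16.5 Mb away.

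The stretch that holds AI606473 lies 16.5 Mb beyond H2afz. AI606473 (ENSMUSG00000093738, chr3:154330821-154334254, plus strand) is annotated as a processed transcript without a protein product. It had 124 counts in H2AZcKO and 58 in H2AZfl/fl, or 14.2 and 6.43 CPM, a ratio of 2.21 (1.61 to 3.08) and a log2 ratio of 1.03, the highest of the flanking genes and at percentile 99.9 of all genes. The authors' deposited table gives it a fold change of 2.15 and an adjusted p-value of 2.76e-05, the only flanking gene there with both an adjusted p-value under 0.05 and a change of at least 2-fold. Lhx8, which starts 161 bases away on the other strand and was left out of the members by name, had 399 counts in H2AZcKO and 214 in H2AZfl/fl, or 45.8 and 23.7 CPM, a ratio of 1.93 (1.63 to 2.29). The intervals of this divergent pair overlap, and both genes were higher in the H2AZcKO library.

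Lhx8 is a LIM-homeobox factor of ventral telencephalic progenitors and cholinergic neurons. Of the telencephalic markers, the ventral genes Dlx1, Dlx2 and Gsx2 were also higher in that library: Dlx1 had a ratio of 1.26 (1.21 to 1.31), Dlx2 one of 1.21 (1.14 to 1.28) and Gsx2 one of 1.43 (1.14 to 1.79). Among dorsal markers, Emx1 was higher at 1.15 (1.06 to 1.255) and Neurod6 at 1.10 (1.06 to 1.15), while Pax6 at 0.972 (0.898 to 1.05), Eomes at 0.982 (0.931 to 1.04), Emx2 at 1.03 (0.934 to 1.13) and Tbr1 at 1.02 (0.970 to 1.07) had intervals that include 1. The part of ventral tissue in the counts of AI606473 and Lhx8 was not tested.

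The members on both sides of that pair did not share its ratio. Nearest on the centromeric side, Slc44a5, a choline transporter-like protein, had 239 counts in H2AZcKO and 237 in H2AZfl/fl, a ratio of 1.04 (0.868 to 1.254). Acadm, the medium-chain acyl-CoA dehydrogenase, had 218 and 270 counts and a ratio of 0.835 (0.696 to 1.002). Rabggtb, a subunit of the enzyme that prenylates Rab proteins, had 459 and 468 counts and a ratio of 1.01 (0.890 to 1.16). Towards the telomere, Tyw3, an enzyme of tRNA modification, had 122 and 133 counts and a ratio of 0.949 (0.736 to 1.22). Cryz, a quinone reductase, had 83 and 106 counts and a ratio of 0.810 (0.6004 to 1.09), and Erich3 had 14 and 22 counts and a ratio of 0.658 (0.312 to 1.35). The intervals of all 6 lie below that of AI606473, and their ratios run from 0.658 to 1.04.

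The other members past 1.5-fold rested on fewer counts, and the predicted genes among them are named because so few passed, after their values were seen. Ak5, an adenylate kinase of neurons, had 52 counts in H2AZcKO and 28 in H2AZfl/fl, a ratio of 1.92 (1.19 to 3.16). It overlaps 12 bases of Zzz3, a subunit of a histone acetyltransferase complex, which had 672 and 687 counts and a ratio of 1.01. Gm43857, with 30 and 13 counts and a ratio of 2.39 (1.21 to 4.99), lies opposite 2456 bases of Usp33. Gm43254, with 26 and 12 counts and a ratio of 2.24 (1.09 to 4.88), is an intergenic RNA. On the lower side, Cth, the cystathionine gamma-lyase that makes cysteine, had 33 and 56 counts and a ratio of 0.610 (0.384 to 0.954). Gm26691 had 18 and 34 counts and a ratio of 0.548 (0.291 to 0.997), and it shares 4158 bases on the opposite strand with Cxxc4, which was lower as well.

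Below the 1.5-fold limit, the higher members with at least 100 counts formed a mixed set. Slc39a8, a zinc and manganese importer, had 97 counts in H2AZcKO and 67 in H2AZfl/fl, a ratio of 1.498 (1.09 to 2.08) that falls under the limit on the log2(CPM + 1) scale. Casp6, an executioner caspase, had 294 and 237 counts and a ratio of 1.28 (1.08 to 1.53). Ints12, a subunit of the Integrator complex, had 274 and 226 counts and a ratio of 1.254 (1.05 to 1.503). Negr1, a cell adhesion molecule of growing neurites, had 596 and 500 counts and a ratio of 1.23 (1.09 to 1.39). Gar1, a protein of the complexes that pseudouridylate ribosomal RNA, had 374 and 315 counts and a ratio of 1.23 (1.05 to 1.43). Gtf2b, the general transcription factor TFIIB, had 588 and 503 counts and a ratio of 1.21 (1.07 to 1.36), and Lmo4, a LIM-only cofactor of cortical patterning, had 1299 and 1136 and a ratio of 1.18 (1.09 to 1.28). These 7 genes all had intervals that exclude 1, at ratios of 1.18 to 1.498, but not every higher member of that depth did. Ddit4l, described above, had a ratio of 1.39 with an interval of 0.957 to 2.02.

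Lower members of that depth were fewer. Miga1, which promotes mitochondrial fusion, had 1350 counts in H2AZcKO and 1664 in H2AZfl/fl, a ratio of 0.839 (0.781 to 0.902), and the authors' deposited table gives it an adjusted p-value of 1.64e-06. Cxxc4, an inhibitor of Wnt signalling that binds Dishevelled, had 501 and 616 counts and a ratio of 0.841 (0.746 to 0.948). Bmpr1b, a BMP receptor kinase, had 105 and 140 counts and a ratio of 0.776 (0.597 to 1.01), whose interval just includes 1. Tbck had 302 and 371 counts and a ratio of 0.842 (0.721 to 0.983). Its 227 bases of overlap with Aimp1, a scaffold of the aminoacyl-tRNA synthetase complex, run on opposite strands, and Aimp1 went the other way, with 671 and 581 counts and a ratio of 1.19 (1.07 to 1.34).

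Grouped by role, the members of most lists stood on both sides of 0. Of the 5 members of the Wnt and BMP list, 4 were below 0, beside 42 of all 106 members. Its median was -0.25, the lowest of the lists. Wls, which carries Wnt proteins to the cell surface, had 114 counts in H2AZcKO and 143 in H2AZfl/fl, a ratio of 0.825 (0.639 to 1.06). Lef1 had 181 and 204 counts and a ratio of 0.918 (0.747 to 1.13), and the matrix-bound growth regulator Ccn1 had 245 counts in each library and a scaled ratio of 1.03. Only Cxxc4 of these 5 had an interval that excludes 1, and none was past 1.5-fold.

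Protein synthesis and RNA processing genes were more often above 0 than below, as were the flanking genes in general. Above 0 were 60.4% of all members and 81.3% of those with at least 1000 counts. Of 11 members of protein synthesis and ribosome assembly, 8 were above 0 with a median of 0.11, or 0.04 once a trend on transcript length, GC content and level was taken out, led by Gar1 and Aimp1, and Selenof, an endoplasmic reticulum selenoprotein, had 1971 and 1822 counts and a ratio of 1.12 (1.05 to 1.19). Znhit6, a factor for assembly of small nucleolar ribonucleoproteins, had 211 and 245 counts and stood below 1 at 0.891 (0.738 to 1.08). All 4 splicing and RNA-binding members were above 0, with a median of 0.06, but apart from Ints12 their ratios were near 1, and Zranb2 stood at -0.01 on the log2 scale under total-count scaling. Fubp1, the most counted member, had 4799 and 4746 counts and a ratio of 1.05 (1.005 to 1.09). Srsf11 had 2846 and 2833 counts and a ratio of 1.04, and Zranb2 had 1274 and 1294 counts and a ratio of 1.02.

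Signalling enzymes were slightly higher as a small list, in a segment where 60.4% of members were above 0. Of 7 kinases, phosphatases and G proteins, 6 were above 0 with a median of 0.15, among them Ppp3ca, Ak5 and the G protein subunit Gng5, which had 917 and 856 counts and a ratio of 1.11 (1.01 to 1.22). Prkacb, a catalytic subunit of protein kinase A, was the exception, with 1401 and 1494 counts and a ratio of 0.970 (0.901 to 1.04). Of the 3 members of the NF-kappaB and cell death list, Casp6 was higher, Bcl10 had 234 and 217 counts at a ratio of 1.12 (0.923 to 1.35), and Nfkb1 had 220 and 231 counts at 0.985 (0.815 to 1.19). The 13 metabolic members were divided into 7 above and 6 below 0, with a median of 0.06 that became -0.03 when genes under the count minimum were added, from Cth at the low end to the mitochondrial pyrophosphatase Ppa2, with 323 and 277 counts and a ratio of 1.21 (1.02 to 1.42).

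The remaining lists were centred near 0. Total-count scaling, which puts the median of all genes at -0.03, moved the medians of the chaperone, transcription factor and cell division lists below 0, and a minimum of 50 counts put the chaperone list at -0.05. The 13 chaperone, ubiquitin and secretory members had a median of 0.01, although 4 of them, Dnajb14, Lamtor3, Miga1 and Tbck, had intervals wholly below 1, beside 11.3% of all genes. The list is broad: Lamtor3, of the Ragulator complex, and Miga1, of mitochondrial fusion, are not chaperones, and no effect of the role was tested. The 13 neuronal adhesion, matrix and cytoskeleton members had a median of 0.03, with Negr1 high and Col25a1, at 46 and 62 counts, low. The 5 transcription factor members had a median of 0.02 and the 5 members of the cell division list a median of 0.03. That list was drawn broadly and holds Ankrd13c, Lrrc40, Cenpe, Odf2l and Depdc1a. Cenpe, the kinetochore motor, had 770 and 778 counts and a ratio of 1.02 (0.926 to 1.13). The 3 blood vessel and receptor members, Egf, Emcn and Tacr3, had 28 and 35, 47 and 50, and 18 and 12 counts, and all 3 intervals include 1. Of the interferon-induced GTPases listed, 1 had a row in the segment and it was under the count minimum.

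**Figure D4:**
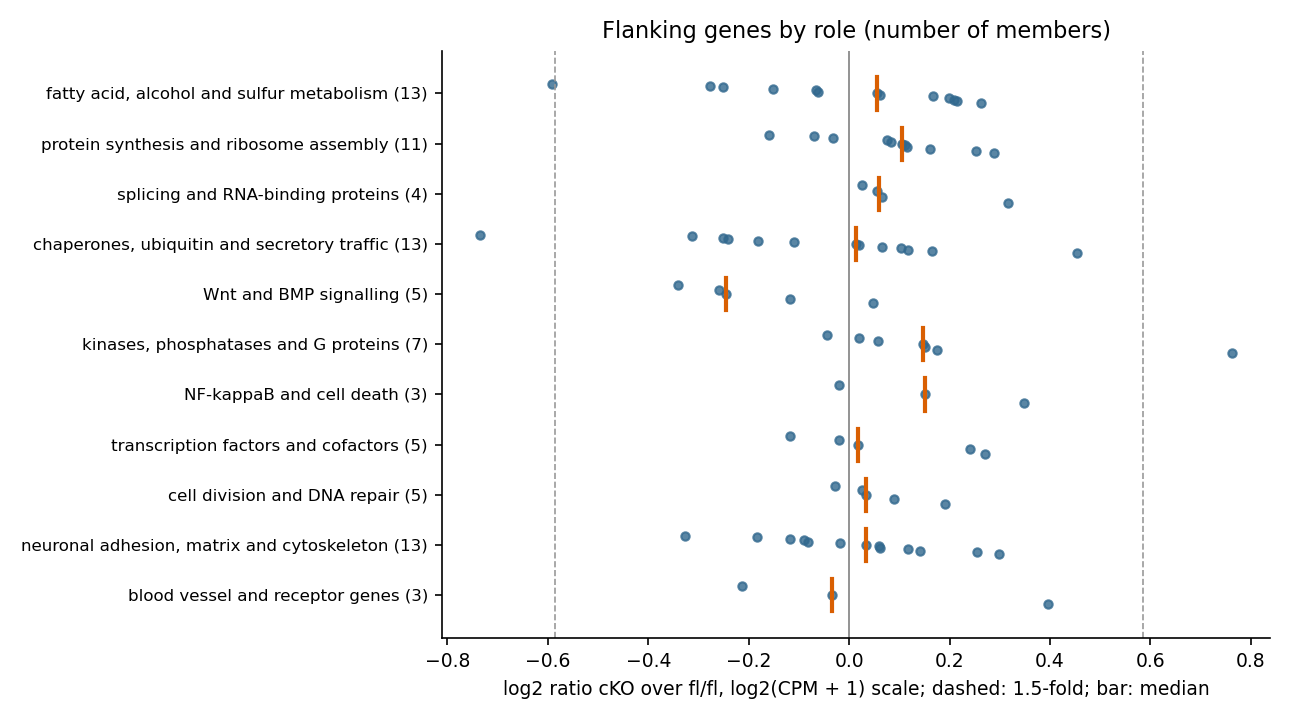
Log2 ratio of H2AZcKO to H2AZfl/fl of each flanking gene by role, 1 point per gene, with the median of each list as a bar and dashed lines at 1.5-fold. The Wnt and BMP list has the lowest median at -0.25, and Dnajb14 and Cth are the low points of their lists.

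Neighbours that overlap or lie at most 1000 bases apart were compared pairwise in chromosomal order. Of 25 such pairs in the segment, counting H2afz and Lhx8, 17 had both log2 ratios on the same side of 0, or 68%, beside 52.0% of 3159 pairs over all chromosomes. Both genes were at least 25% higher, or lower by the same factor, in 3 pairs, or 12%, beside 2.06%. These 3 were H2afz with Dnajb14, Lhx8 with AI606473, and the convergent pair Casp6 with Mcub, of which Mcub had 35 and 25 counts and a ratio of 1.45 (0.842 to 2.52). Among the 23 pairs in which both genes are members, 15 were on the same side, or 65.2%, and 1 passed that size, or 4.35%. The first 2 of the 3 pairs were known when the segment was proposed, and nothing is read from their count.

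Across the libraries, the counts summed to 8839840 in H2AZcKO and 8891198 in H2AZfl/fl, and a count of 0 allows up to 0.344 and 0.333 scaled CPM, the level of 3 counts. All 10 telencephalic markers reached 20 counts, and 8 of them had a log2 ratio above 0. Of 11 diencephalic and hypothalamic markers, 10 reached 20 counts and 7 of these were at least 1.5-fold lower in H2AZcKO, while Barhl2 had a ratio of 0.990 (0.789 to 1.24). All 11 summed to 112 CPM in H2AZcKO and 204 in H2AZfl/fl, with Rax and Nkx2-4 at 0 in H2AZcKO. Erythroid markers summed to 691 and 364 CPM, macrophage markers to 49.6 and 35.5 CPM and endothelial markers to 117 and 120 CPM. Xist stood at 732 and 22.2 CPM. In H2AZcKO the Y-linked genes Kdm5d, Eif2s3y, Ddx3y and Uty had 5, 1, 0 and 2 counts. In H2AZfl/fl they had 647, 630, 249 and 190. Sex-linked transcripts thus separate the same libraries as the genotype does, so sex and genotype cannot be told apart. The part of these differences in the ratios of the flanking genes was not tested.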

How the data were processed

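RNA-seq of E12 mouse telencephalon was analysed from 1 deposited table with 1 column per genotype. The deposited values are read counts per gene, whole numbers that sum to 8839840 and 8891198. The control column, headed WT per the file headers, was taken as H2AZfl/fl, the only other genotype. Trizol extraction was followed by TruSeq RNA library preparation, per the labels' protocols. Bowtie2 2.2.3, TopHat2 2.0.12, HTSeq 0.6.0 and the build mm9 are named, with no role or order, per the submitters' processing notes. The positions in the table are nonetheless those of GRCm38: all 106 flanking genes have the position of GENCODE M21, and coordinates are given in that build. The authors' CPM is the count over a library constant. Fold changes deposited by the authors divide these CPM values, and log2 values deposited by the authors are their logarithm. The test behind the authors' p-value is not given in the sources.

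TMM factors of 0.986 and 1.01 scaled the libraries (edgeR 4.0.16, R 4.3.3). DESeq2 1.42.0 gave the size factors of an alternative only. Ratios are H2AZcKO over H2AZfl/fl of scaled counts with exact Clopper-Pearson intervals at 95%, which cover counting error only. Without molecular identifiers, reads are not independent molecules. Log2 ratios use log2(CPM + 1), and a gene was counted as higher or lower at 1.5-fold on that scale. With 1 library per group no test was run. The remaining steps used Python 3.11.15 with pandas 2.3.3, numpy 2.4.6, matplotlib 3.10.9 and scipy 1.17.1, and were tested on simulated data.

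The members and lists were chosen with earlier results of these data known. Genes were named by rule: those within 1 Mb of H2afz, AI606473 with 3 members on each side, the 10 largest ratios in each direction with at least 100 counts (leaving out Gm and Rik genes), and up to 4 per role list, or all of a list of at most 7. Symbols were matched by identifier for 19112 of 19202 rows and for all members. Of the members, 83 had a RefSeq promoter entry. Alternatives were the pseudocount, the filter, the scaling, the fold, gene type, overlap, and a length, GC and level trend, the last chosen after seeing the data.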

Additional observations from a re-analysis of the deposited data

How the results depend on the processing

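Dnajb14 ranged from -0.77 to -0.60 on the log2 scale, AI606473 from 0.75 to 1.13 and Lamtor3 from -0.35 to -0.29 over the alternatives run, with Dnajb14 at -0.60 when the length, GC and level trend was removed, an alternative chosen after seeing the data. Of 60 named genes, 8 changed sign under some alternative, none with a log2 ratio beyond 0.06. The median of the flanking genes ran from 0.0090 without the count filter to 0.07, and that of the rest of chromosome 3 was -0.04 with total counts and with the CPM as deposited (-0.0433 in each). The number of members past the fold moved with the pseudocount, the filter, the genes counted and the size asked. Higher members numbered 7 with a pseudocount of 0.1 CPM and 1 with 5 CPM, beside 3.09% and 0.207% of all genes. They numbered 2 with a filter of 50 counts and 1 among protein-coding genes, beside 0.905% and 1.22%. Without overlapping genes 2 were higher, beside 1.66%. At 2-fold 1 was higher, and 11 were at a difference of 25%. Lower members numbered 1 with 5 CPM, 7 with no filter and 1 without overlapping genes, beside 0.421%, 2.84% and 2.21% of all genes. They numbered 0 at 2-fold and 8 at the factor for 25%. At the factor for 25%, 7.15% of all genes were higher and 8.79% lower, and at 2-fold 0.121% and 0.436%. Without overlapping genes, 13 intervals of 67 members lay wholly above 1 and 3 wholly below, beside 13.5% and 10.8% of all genes. The median of the splicing list was 0.02 with total counts and with the deposited CPM (0.0196 and 0.0197) and 0.0135 with the trend removed. The other 252 of 272 group values stayed within the limit set for them. For a count this was 1.5 times the reported count. For a median it was an interval over its own genes, or the counting interval in the bin of 1 gene. An interval over genes is not an error, since the genes share 2 libraries, and it is wide in small lists and bins. The centromeric bin at 3 to 6 Mb thus stayed within it although its median went from 0.25 to 0.0050 with no count minimum. At that setting the median of all genes had the same value. No paired analysis was possible because each genotype has 1 library, and for the same reason no library could be left out. Ak5 (0.44) and Cth (-0.35) came under 1.5-fold with a pseudocount of 5 CPM, and at their depth of under 100 counts a 1.5-fold difference is near the counting error.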
